A study of Mus musculus with 6 samples.

Results

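Lymphatic endothelial cells line the vessels that drain fluid and immune cells from the lung. Prox1, Flt4, Lyve1, Mmrn1 and Reln are 5 genes used to mark them, and their reads were followed through 6 RNA-Seq libraries of mouse lung cells. The 5 genes were taken by gene name from a table of 49315 genes. All 5 were found, each once. All 5 had at least 10 reads in the higher library of every comparison, so no member was lost to the filter on low counts. The libraries came from lungs of male mice labelled C57BL/6, given as C57BL/6J in the study's methods (age not given in the sources used here). Sham-treated mice received sterile saline and BLM-treated mice received Bleomycin sulfate (BLM), both by the oropharyngeal route, and lungs were taken 21 days later. From each treatment came unsorted cells, Lamp1-enriched cells, which were sorted as positive for Lamp1 on the cell surface, and Lamp1-depleted cells, which were sorted as negative. Each of the 6 conditions is 1 library, and 2 to 3 lungs of the same group were pooled per tube. Whether the 3 fractions of a treatment came from the same tubes is not given in the sources used here.

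Lymphatic endothelium arises from venous endothelium under the transcription factor Prox1, which is needed to take on and to keep this identity. Flt4 encodes VEGFR-3, the receptor for Vegfc and Vegfd, which drives lymphatic sprouting and is also found on some blood endothelium. Lyve1 encodes a hyaluronan receptor of the initial lymphatics that is shared with a group of interstitial macrophages. Mmrn1 encodes multimerin, a secreted adhesive protein of endothelium that is also stored in platelets. Reln encodes reelin, a large secreted matrix protein of collecting lymphatic vessels, best known from the developing brain.

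With 1 library per condition there are no replicates, and a ratio compares 2 libraries and not 2 conditions. The 95% intervals cover counting error only. Library totals ran from 30236120 to 52918696 reads. Levels are given as CPM, the reads of a gene per 1000000 reads of its library, after scaling by TMM, the trimmed mean of M-values. A gene was called at least 2-fold apart at a log2 ratio of 1 or more in either direction. The BLM Lamp1-depleted library stood apart: 38.4% of its reads fell on the single gene Gm26917, against 0.884% to 7.10% in the other 5, which left 18636423 reads for all other genes. Lamp1 itself was 1.75 higher on the log2 scale in Lamp1-enriched than Lamp1-depleted cells in sham and 1.77 higher in BLM. In sham it had 491 CPM in enriched and 319 in unsorted cells. In BLM the unsorted library was higher, with 501 CPM against 378 in enriched cells. For Ptprc, the pan-leukocyte gene, the ratio was -3.68 (sham) and -2.87 (BLM). The defining endothelial genes Pecam1 and Cdh5 were present in every library, with at least 4456 reads of either. RNA came from a bulk of cells, so fewer cells of a type and less RNA per cell cannot be told apart.

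The 5 genes lie on 5 chromosomes (GRCm38, with gene models of GENCODE release M21). Prox1 (ENSMUSG00000010175) spans chr1:190118035-190170714 on the minus strand, with 5 exons in its longest transcript. Flt4 (ENSMUSG00000020357) spans chr11:49609263-49652739 on the plus strand and has 30 exons. Lyve1 (ENSMUSG00000030787), at chr7:110850607-110863239 on the minus strand, is the shortest of the 5, with 6 exons and 2919 bases of annotated exon. Mmrn1 (ENSMUSG00000054641) spans chr6:60924976-60989378 on the plus strand and has 8 exons. Reln (ENSMUSG00000042453), at chr5:21884454-22344702 on the minus strand, is the longest, with 65 exons and 23738 bases of annotated exon. All 5 are protein-coding. Prox1 overlaps the antisense genes Gm28172 and Prox1os, which had at most 14 and 10 reads in a library. Reln overlaps 7 annotated non-coding genes and pseudogenes with at most 13 reads each. Whether the counting used strand is not given in the sources used here, so reads from these overlaps cannot be assigned to one strand.

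The promoter windows of 4 of the 5 members were found in RefSeq (GRCm38.p6), and Lyve1 was not among them. They are shown because these members differed in their profile over the fractions. For Flt4 and Mmrn1 the Lamp1-enriched library exceeded the Lamp1-depleted one by at least 2-fold in both treatments. For Prox1 and Reln it did so in neither treatment, and the unsorted library was the highest in both. Each window runs 5′ to 3′ on the strand of its gene, from 250 bases before a RefSeq start of transcription to 50 after. The Flt4 and Mmrn1 windows lie within the GENCODE spans of their genes. The Mmrn1 window begins at 60944067, in a span that begins at 60924976. Capitals mark matches on either strand to the letter cores of 4 families of endothelial transcription factors: GGAAG for ETS, GATAA for GATA, ACAAT for SOX and TAAACA for FOX.
Prox1, chr1:190170778-190171077, minus strand: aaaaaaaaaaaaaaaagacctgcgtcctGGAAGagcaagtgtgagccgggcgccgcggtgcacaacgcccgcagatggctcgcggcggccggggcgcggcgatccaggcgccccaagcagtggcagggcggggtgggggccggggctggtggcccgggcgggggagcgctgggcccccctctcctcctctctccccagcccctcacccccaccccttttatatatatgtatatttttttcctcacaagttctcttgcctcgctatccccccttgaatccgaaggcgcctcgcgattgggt
Flt4, chr11:49609429-49609728, plus strand: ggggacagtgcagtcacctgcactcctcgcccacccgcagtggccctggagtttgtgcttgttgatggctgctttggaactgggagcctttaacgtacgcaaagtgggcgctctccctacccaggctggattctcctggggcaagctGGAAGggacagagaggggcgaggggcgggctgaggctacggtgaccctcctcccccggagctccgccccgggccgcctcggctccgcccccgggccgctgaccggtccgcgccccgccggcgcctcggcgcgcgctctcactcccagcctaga
Mmrn1, chr6:60944067-60944366, plus strand: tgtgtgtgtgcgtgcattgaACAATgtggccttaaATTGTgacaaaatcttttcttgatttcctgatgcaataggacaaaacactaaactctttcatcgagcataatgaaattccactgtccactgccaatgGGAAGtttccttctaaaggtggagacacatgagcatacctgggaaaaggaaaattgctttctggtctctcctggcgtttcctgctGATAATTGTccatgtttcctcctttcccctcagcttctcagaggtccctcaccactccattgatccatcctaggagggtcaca
Reln, chr5:22344656-22344955, minus strand: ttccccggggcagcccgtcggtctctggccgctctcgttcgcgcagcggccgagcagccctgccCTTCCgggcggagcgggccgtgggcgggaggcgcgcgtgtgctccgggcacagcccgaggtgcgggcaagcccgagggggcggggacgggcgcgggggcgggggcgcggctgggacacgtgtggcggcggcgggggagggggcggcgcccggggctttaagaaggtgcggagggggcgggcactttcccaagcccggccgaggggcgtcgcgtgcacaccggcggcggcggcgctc

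Each of the 4 windows held 1 match to the ETS core, which 71.4% of the 32851 RefSeq promoters hold. The Mmrn1 window also held 3 matches to the SOX core and 1 to the GATA core, the last of which shares 1 base with a SOX match. The SOX core is found in 31.0% and the GATA core in 25.4% of all promoters. The FOX core, found in 13.4% of all promoters, matched none of these 4 windows and matched 1 time in a second Prox1 window that is not printed. The share of G and C was 64.3% for Prox1, 70.3% for Flt4, 44.3% for Mmrn1 and 80.7% for Reln, against a median of 52.7%. The Reln window was richer in G and C than 99.2% of promoters and the Mmrn1 window than 20.1%. These matches describe the letters of the windows only.

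Prox1 was the member with the fewest reads and was most abundant in unsorted cells. Sham unsorted cells had 252 reads, with 37 in the depleted and 63 in the enriched fraction, and the BLM fractions had 517, 68 and 118 reads in that order. As CPM these were 5.19 (95% counting interval 4.57 to 5.87), 0.812 (0.571 to 1.12) and 1.37 (1.05 to 1.75) in sham. In BLM the CPM were 13.1 (12.0 to 14.3), 3.22 (2.5 to 4.08) and 2.16 (1.79 to 2.59). Each BLM library was above its sham counterpart, and in both treatments the unsorted library was well above both sorted ones.

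Flt4, the Vegfc receptor, followed the sort. It had 75.2 CPM in sham unsorted, 15.0 in sham Lamp1-depleted and 102 in sham Lamp1-enriched cells. In BLM it had 58.0 CPM in unsorted, 12.3 in Lamp1-depleted and 88.8 in Lamp1-enriched cells. The Lamp1-depleted libraries were the lowest and the Lamp1-enriched libraries the highest in both treatments, and every BLM value lay a little under its sham counterpart.

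Lyve1, the hyaluronan receptor, had the most reads of the 5. Its level was 305 CPM in sham unsorted, 54.1 in sham Lamp1-depleted and 606 in sham Lamp1-enriched cells. In BLM it was 83.3 CPM in unsorted, 10.5 in Lamp1-depleted and 292 in Lamp1-enriched cells. The order of the fractions was that of Flt4, and all 3 BLM libraries were lower than the sham library of the same fraction.

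Mmrn1, the secreted multimerin, had 38.5 CPM in sham unsorted, 6.41 in sham Lamp1-depleted and 68.4 in sham Lamp1-enriched cells. In BLM it had 18.1 CPM in unsorted, 3.69 in Lamp1-depleted and 13.7 in Lamp1-enriched cells. In sham the enriched library was the highest, whereas in BLM the unsorted library was.

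Reln, the matrix protein, had 13.8 CPM in sham unsorted, 5.51 in sham Lamp1-depleted and 1.93 (1.55 to 2.38) in sham Lamp1-enriched cells. In BLM it had 15.8 CPM in unsorted, 2.98 (2.29 to 3.82) in Lamp1-depleted and 2.73 (2.31 to 3.21) in Lamp1-enriched cells. As with Prox1, the unsorted library was the highest in each treatment, and the 2 sorted BLM libraries did not differ beyond counting error.

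**Figure D1:**
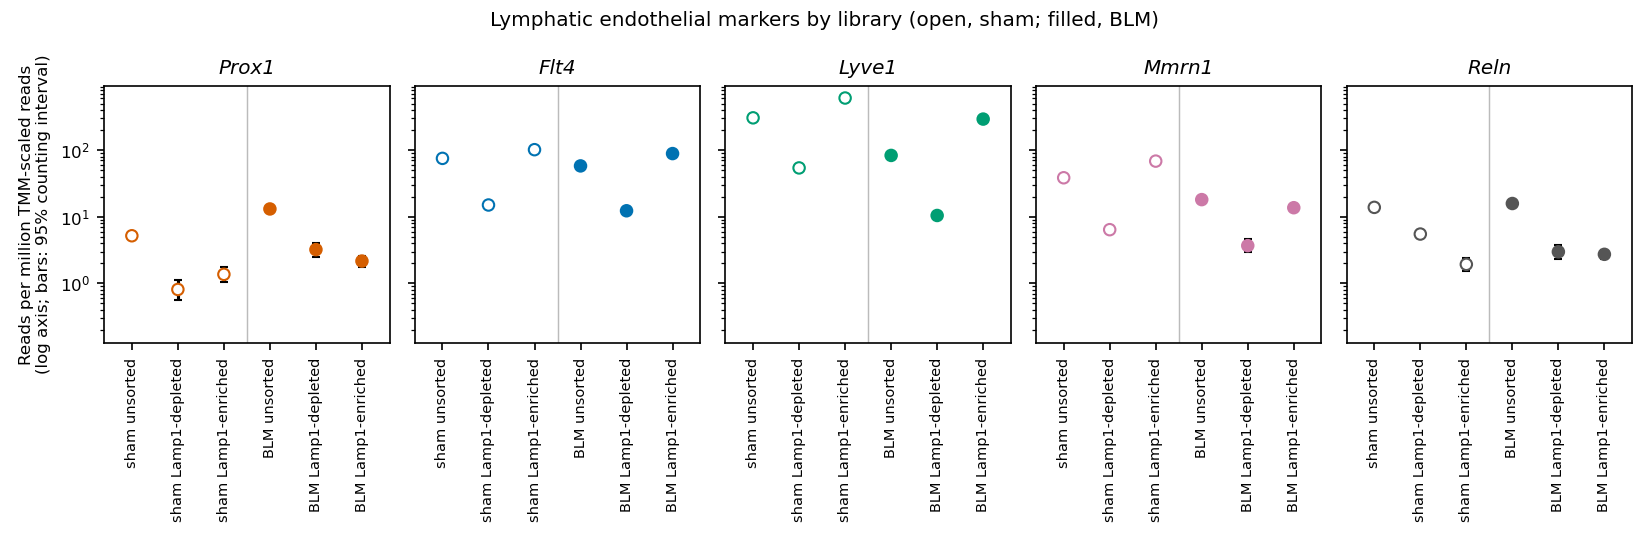
CPM after TMM scaling (log axis) of the 5 markers in the 6 libraries, 1 point per library, open for sham and filled for BLM, with 95% counting intervals that are mostly smaller than the points. Prox1 and Reln are highest in the unsorted libraries, while Flt4 and Lyve1 are highest in the Lamp1-enriched libraries of both treatments.

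Divided by length, so that genes can be compared, the order of the 5 levels was nearly the same in all libraries. Lyve1 was the highest in 6 of 6, with 3.58 to 207 CPM per kilobase of annotated exon. Flt4 was next, with 1.5 to 12.3 CPM per kilobase, and Mmrn1 followed with 0.629 to 11.7. In sham Lamp1-enriched cells the per-kilobase intervals of Flt4 (12.0 to 12.7) and Mmrn1 (11.3 to 12.1) overlapped, so their order there is within counting error. Prox1 had 0.0967 to 1.56 CPM per kilobase and Reln 0.0815 to 0.666. Prox1 lay above Reln in 5 of the 6 libraries, but in sham unsorted cells their intervals overlapped (0.545 to 0.700 for Prox1 and 0.540 to 0.629 for Reln). The order of these 2 genes also rests on the length used: per kilobase of the longest transcript, sham unsorted cells had 1.18 for Reln and 0.656 for Prox1. Lyve1 made up 77.7% of the reads on the 5 genes in sham Lamp1-enriched cells and 32.0% in the BLM Lamp1-depleted library, while the Prox1 share ran from 0.176% to 9.86%.

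The first comparison was between cells with and without surface Lamp1 in sham-treated mice. Flt4, Lyve1 and Mmrn1 were higher in Lamp1-enriched cells and Reln was lower, each by at least 2-fold. Lyve1 had a log2 ratio of 3.48 (3.42 to 3.54), or 11.2-fold. Mmrn1 had a log2 ratio of 3.42 (3.24 to 3.6) and Flt4 one of 2.76 (2.64 to 2.88). These 3 genes lay between 6.76-fold and 11.2-fold. Reln went the other way, with a log2 ratio of -1.50 (-1.87 to -1.15). Prox1 had a log2 ratio of 0.75 (0.15 to 1.38), short of 2-fold. Of the 21867 genes tested, 27.5% were at least 2-fold higher and 25.2% at least 2-fold lower, beside 3 and 1 of the 5 markers. The median log2 ratio was 2.76 for the 5 markers and -0.01 for all genes.

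The same comparison in BLM-treated mice gave 3 of 5 markers at least 2-fold higher in Lamp1-enriched cells and 0 lower. Lyve1 had a log2 ratio of 4.80 (4.61 to 5.0), or 27.9-fold, Flt4 one of 2.85 (2.67 to 3.04) and Mmrn1 one of 1.89 (1.55 to 2.25). Prox1 had a log2 ratio of -0.57 (-1.01 to -0.12), and -0.01 when only total counts were used for scaling. Reln had a log2 ratio of -0.13 (-0.56 to 0.32), which turned to 0.43 with total counts only. Of 21838 genes, 34.3% were at least 2-fold higher and 22.6% at least 2-fold lower, with a median log2 ratio of 0.29 for all genes. With total counts only, 10160 genes were higher and 3447 lower, against 7493 and 4933 with TMM. All of these values rest on the BLM Lamp1-depleted library. With Gm26917 left out of the table the log2 ratios were 4.67 for Lyve1, 2.72 for Flt4, 1.76 for Mmrn1, -0.70 for Prox1 and -0.25 for Reln, and 6984 genes were higher and 5345 lower.

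The Lamp1-enriched over Lamp1-depleted ratio of Flt4 was nearly equal in the 2 treatments, with a BLM minus sham difference in log2 ratio of 0.09 (-0.12 to 0.31). Lyve1 differed by 1.32 (1.12 to 1.52) and Reln by 1.38 (0.83 to 1.93), both with the larger ratio in BLM. Mmrn1 differed by -1.53 (-1.91 to -1.15) and Prox1 by -1.32 (-2.04 to -0.59), both with the larger ratio in sham. The median of this difference over all genes tested in both treatments was 0.21. These intervals hold counting error alone, and the differences were not tested against the variation between mice.

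A test of the sort over both treatments took the 4 sorted libraries and kept treatment as a block, and was fitted by edgeR's quasi-likelihood method to 20593 genes. It had 1 residual degree of freedom, and its spread was pooled over genes so fully that no gene kept a spread of its own. Of all genes, 21.5% rose and 19.2% fell in Lamp1-enriched cells at a Benjamini-Hochberg adjusted p under 0.05, beside 3 and 0 of the 5 markers. Lyve1 rose by a log2 fold change of 4.04 (edgeR adjusted p = 1.19e-19), higher in the enriched library of 2 of 2 treatments. Flt4 rose by 2.71 (edgeR adjusted p = 1.35e-12), and Mmrn1 rose by 2.59 (edgeR adjusted p = 3.70e-10), also in 2 of 2 treatments. Prox1 had a log2 fold change of -0.03 (edgeR adjusted p = 0.981), with a sign that changed between scalings. Reln had -0.92 (edgeR adjusted p = 0.157). Without the treatment block each gene kept part of its own spread, which then also held the treatment difference. In that fit the edgeR adjusted p was 0.0229 for Lyve1, 0.00445 for Flt4 and 0.0399 for Mmrn1. Without the BLM Lamp1-depleted library and without the block, an alternative chosen after seeing the data, the edgeR adjusted p was 0.00812 for Flt4 and 0.0250 for Lyve1. Mmrn1 no longer passed there, with a log2 fold change of 2.68 (edgeR adjusted p = 0.132). In that fit the depleted arm was the sham library alone, taken to vary like the 2 enriched libraries, which came from different treatments.

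**Figure D2:**
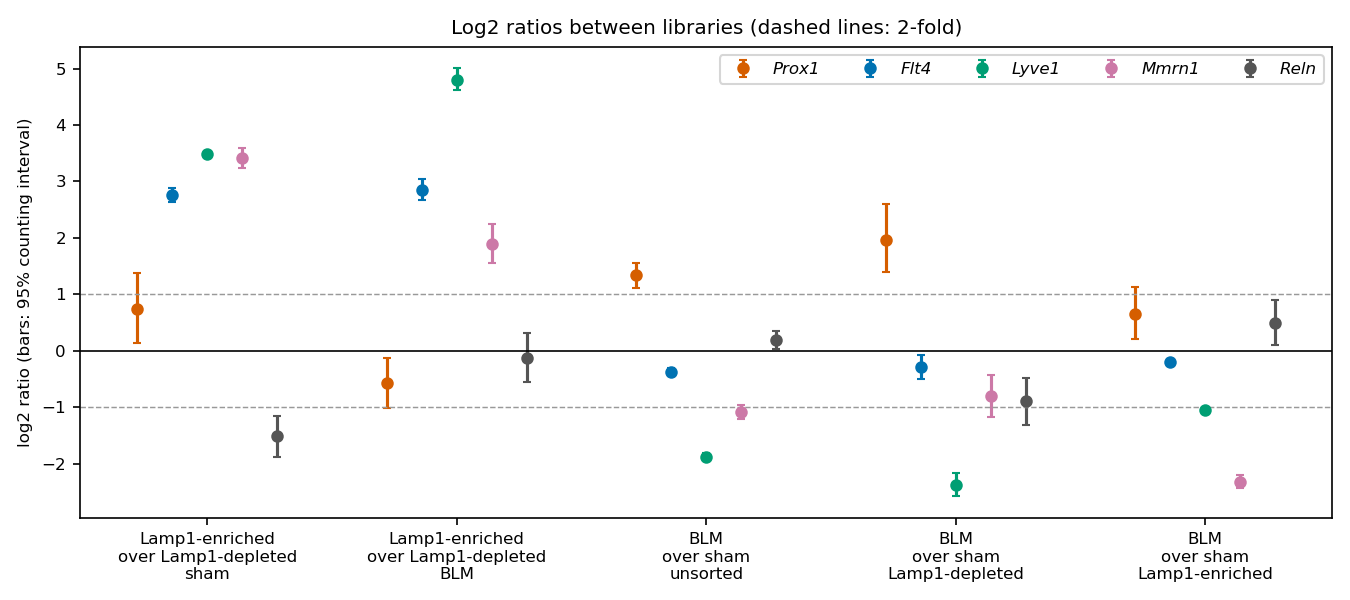
Log2 ratios of the 5 markers in the 5 comparisons, 1 point per gene with its 95% counting interval; the dashed lines mark 2-fold. Lyve1, Flt4 and Mmrn1 lie above 2-fold in both sort comparisons, and in the BLM over sham comparisons Prox1 lies above 0 and Lyve1 at or under the lower line.

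Unsorted cells compared BLM-treated with sham-treated lungs as a whole. Prox1 was higher and Lyve1 and Mmrn1 were lower by at least 2-fold. Genes used to mark the same cell type thus moved in opposite directions, and whether their reads came from that type was not tested. The log2 ratio of Prox1 was 1.33 (1.12 to 1.56), or 2.52-fold higher. Lyve1 had a log2 ratio of -1.87 (-1.93 to -1.82), or 3.66-fold lower. Mmrn1 had a log2 ratio of -1.09 (-1.22 to -0.96). Both of these remained lower with total counts only. Flt4 had a log2 ratio of -0.38 (-0.45 to -0.30). Reln had a log2 ratio of 0.19 (0.03 to 0.35), which turned to -0.07 with total counts only. Among 22772 genes 13.9% were at least 2-fold higher and 16.0% at least 2-fold lower (2440 and 5084 genes with total counts only, against 3174 and 3640). The median log2 ratio was -0.38 for the 5 markers and -0.07 for all genes.

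In Lamp1-depleted cells 1 marker, Prox1, was at least 2-fold higher in BLM and 1, Lyve1, was at least 2-fold lower. The log2 ratio was 1.97 (1.39 to 2.61) for Prox1, from 37 and 68 reads, and -2.37 (-2.58 to -2.17) for Lyve1. Reln had -0.88 (-1.31 to -0.48), Mmrn1 -0.79 (-1.17 to -0.43) and Flt4 -0.29 (-0.50 to -0.08). Of 20852 genes, 13.7% were higher and 22.3% lower, with a median log2 ratio of -0.20. Scaling decides this comparison more than the others: with total counts only 1415 genes were higher and 9756 lower, against 2858 and 4642, and all 5 markers passed 2-fold, Flt4 with -1.01.

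In Lamp1-enriched cells Mmrn1 and Lyve1 were at least 2-fold lower in BLM and 0 of the 5 were higher by that margin. Mmrn1 had a log2 ratio of -2.32 (-2.44 to -2.21), or 5.0-fold lower, and Lyve1 one of -1.05 (-1.08 to -1.02). Flt4 was close to level, with a log2 ratio of -0.19 (-0.25 to -0.14). Prox1 had a log2 ratio of 0.66 (0.21 to 1.13) and Reln one of 0.50 (0.11 to 0.89). Of 21671 genes, 10.2% were higher and 7.86% lower, and the median log2 ratio was 0.00. This comparison does not use the BLM Lamp1-depleted library except through the shared TMM scaling.

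Prox1 and Reln had a higher CPM in unsorted cells than in either sorted fraction, a comparison added after their values were seen. Prox1 was lower than unsorted by a log2 ratio of -1.91 (-2.34 to -1.52) in sham Lamp1-enriched and -2.66 (-3.22 to -2.18) in sham Lamp1-depleted cells. In BLM the log2 ratios of Prox1 to unsorted were -2.59 (-2.90 to -2.31) in enriched and -2.02 (-2.41 to -1.66) in depleted cells. For Reln they were -2.83 (-3.17 to -2.52) and -1.33 (-1.54 to -1.12) in sham, and -2.53 (-2.80 to -2.27) and -2.40 (-2.80 to -2.03) in BLM. So the unsorted library exceeded both sorted ones by 2-fold or more for 2 of the 5 markers in each treatment, where 7.23% of 23233 genes did so in sham and 8.42% of 22801 in BLM. Flt4 and Lyve1, by contrast, were higher in Lamp1-enriched than unsorted cells, by log2 ratios of 0.43 and 0.99 in sham and 0.61 and 1.81 in BLM. Mmrn1 had 0.83 in sham and -0.40 in BLM. An unsorted library 2-fold or more above both sorted ones was also found in gene lists taken up below. It held for 5 of 12 interstitial macrophage genes in sham and 10 of 13 in BLM. For fibroblast genes the counts were 3 of 6 in sham and 0 of 6 in BLM. Pan-endothelial genes had 0 of 8 in each treatment.

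The levels of 8 pan-endothelial genes moved with the sort (Pecam1, Cdh5, Cldn5, Esam, Egfl7, Ptprb, Robo4 and Erg). The markers were therefore also counted per 1000 reads of these 8 genes in the same library. All 8 rose in Lamp1-enriched cells in the edgeR test, and their summed level was 6636, 1447 and 11264 CPM in sham unsorted, depleted and enriched cells and 3670, 928 and 10570.4 CPM in BLM. Flt4 kept close to this list in sham, with 11.3, 10.4 and 9.02 reads per 1000 in the same order, and had 15.8, 13.3 and 8.40 in BLM. Lyve1 had 46.0, 37.4 and 53.8 reads per 1000 in sham and 22.7, 11.3 and 27.7 in BLM, so that every BLM value was under every sham value. Mmrn1 had 5.80, 4.43 and 6.08 in sham and 4.93, 3.98 and 1.29 in BLM, the enriched BLM library standing apart from the other 5. Prox1 had 0.782, 0.561 and 0.122 in sham and 3.57, 3.47 and 0.205 in BLM. Reln had 2.09, 3.80 and 0.172 in sham and 4.31, 3.21 and 0.259 in BLM. Per endothelial read, both genes were thus lowest in Lamp1-enriched cells of each treatment.

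Set against these endothelial reads, the BLM over sham log2 ratio in unsorted cells was 2.19 (1.97 to 2.41) for Prox1, 1.05 (0.89 to 1.20) for Reln and 0.48 (0.40 to 0.55) for Flt4. It was -1.02 (-1.07 to -0.96) for Lyve1 and -0.23 (-0.36 to -0.11) for Mmrn1. Lyve1 was therefore lower in BLM also relative to other endothelial genes, while the Mmrn1 difference in unsorted cells was smaller on this scale. With Cdh5 or Pecam1 alone as the denominator Mmrn1 had -0.57 or -0.50 and Reln 0.71 or 0.78, the latter short of 2-fold. In Lamp1-enriched cells the same log2 ratio was -2.23 (-2.35 to -2.12) for Mmrn1, -0.96 (-0.99 to -0.93) for Lyve1, -0.10 (-0.16 to -0.04) for Flt4, 0.75 (0.31 to 1.19) for Prox1 and 0.59 (0.21 to 0.97) for Reln. Between sorted fractions, enriched over depleted, Prox1 had -2.21 (-2.79 to -1.62) in sham and -4.08 (-4.51 to -3.65) in BLM, and Reln -4.47 (-4.82 to -4.12) and -3.63 (-4.06 to -3.21). Flt4 had -0.20 in sham and -0.66 in BLM on this scale, which turned to 0.50 and 0.29 when Pecam1 alone was the denominator. With Pecam1 alone Prox1 had -1.50 in sham and -3.13 in BLM, and Reln -3.76 and -2.69.

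**Figure D3:**
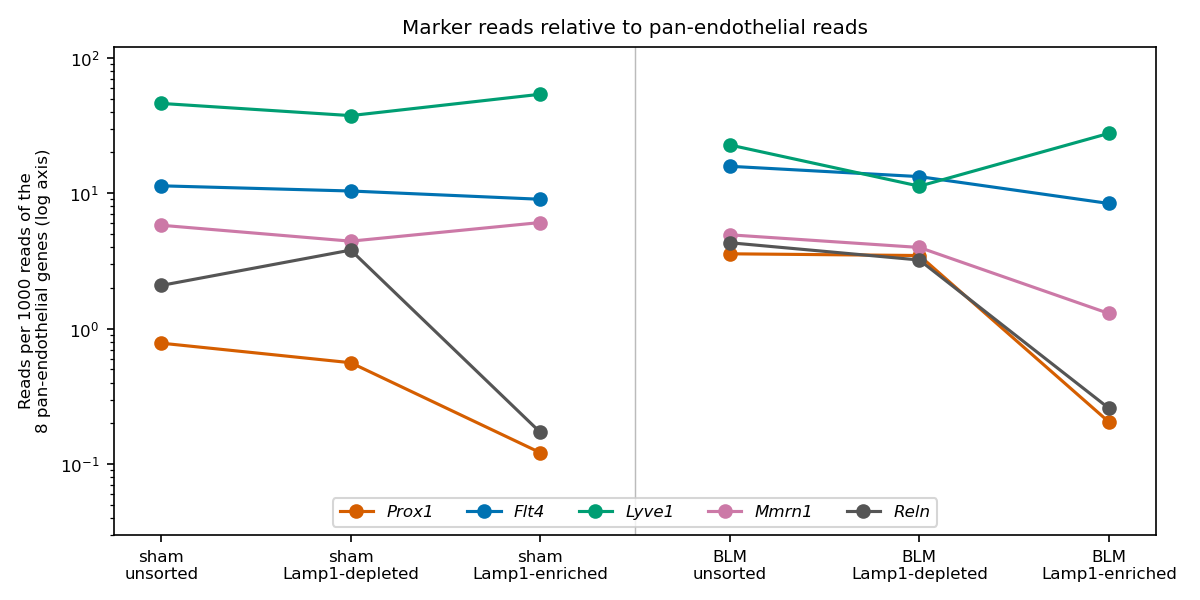
Reads of each marker per 1000 reads of the 8 pan-endothelial genes in the same library (log axis), 1 point per library, joined within a treatment. Prox1 and Reln drop to between 0.122 and 0.259 in the Lamp1-enriched libraries, while Flt4 stays between 8.40 and 15.8.

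Lyve1 is shared with interstitial macrophages, so a list of 13 genes of such macrophages was set beside it. Their summed level was 274, 233 and 163 CPM in sham unsorted, depleted and enriched cells and 1452, 307 and 246 CPM in BLM. In unsorted cells 9 of the 13 were at least 2-fold higher in BLM and 0 were lower, beside 13.9% and 16.0% of all genes. Their median log2 ratio was 2.58, while Lyve1 was lower. Mrc1, the mannose receptor, had a log2 ratio of 2.82, Csf1r, the receptor for colony stimulating factor, 2.51, and Adgre1, which encodes F4/80, 2.77. Between sorted fractions 2 of the 12 list members tested rose and 3 fell in the edgeR test, near the shares of 21.5% and 19.2% of all genes. Among them were Csf1r, which fell by 1.95 on the log2 scale (edgeR adjusted p = 2.69e-07), and Gas6, which rose by 2.42 (edgeR adjusted p = 2.08e-09). With total counts only 1 rose and 0 fell, and Csf1r had -1.66 (edgeR adjusted p = 0.105), and without the treatment block 1 rose and 1 fell. Outside the naming rule, some list genes were at low counts: Folr2 had 1 to 44 reads, Timd4 3 to 94 and Cd163 33 to 105 over the 6 libraries. Others, also outside the rule, passed the edgeR test of the sort in opposite directions. Cbr2 had a log2 fold change of 1.17 (edgeR adjusted p = 0.0155) and F13a1 one of -1.27 (edgeR adjusted p = 0.00263). Lyve1 had 3707 reads per 1000 reads of the list in sham Lamp1-enriched cells and 34.1 in BLM Lamp1-depleted cells, so the ratio was not held between libraries. The part of macrophages in the Lyve1 values was not tested.

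Mmrn1 is shared with platelets, and a list of 10 platelet and megakaryocyte genes had a summed level of 401, 91.2 and 1311 CPM in sham and 85.8, 68.0 and 216 CPM in BLM. In Lamp1-enriched cells 10 of 10 were at least 2-fold lower in BLM, with a median log2 ratio of -2.59, close to the -2.32 of Mmrn1. The same 10 of 10 were lower in unsorted cells, with a median of -2.18 beside -1.09 for Mmrn1. In Lamp1-depleted cells 7 of 10 were at least 2-fold lower, with a median of -1.65 beside -0.79 for Mmrn1. Of all genes, 7.86% were at least 2-fold lower in enriched, 16.0% in unsorted and 22.3% in depleted cells. Ppbp, which encodes a platelet chemokine, had a log2 ratio of -2.97 in enriched cells, Itga2b, the platelet integrin chain, -2.19 and Itgb3, its partner, -1.80. Between sorted fractions 9 of 10 rose in Lamp1-enriched cells in the edgeR test, beside 21.5% of all genes. Ppbp rose by a log2 fold change of 4.53 (edgeR adjusted p = 5.12e-24), and Itgb3 had 0.72 (edgeR adjusted p = 0.101). Without the BLM Lamp1-depleted library and the block 0 of 10 passed. Per 1000 reads of the platelet list Mmrn1 had 95.9, 70.2 and 52.2 reads in sham and 211, 54.3 and 63.4 in BLM. In Lamp1-enriched cells this ratio differed between treatments by a log2 ratio of 0.28 (0.16 to 0.40), against 1.14 (1.0 to 1.27) in unsorted cells. The part of platelets in the Mmrn1 values was not tested.

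Among 18 other lymphatic endothelial markers, 10 of 15 tested were at least 2-fold higher in Lamp1-enriched than depleted cells in sham and 3 lower, and in BLM 9 of 17 were higher and 3 lower. In the edgeR test 9 of 16 rose and 3 fell. The shares of all genes were 27.5% higher and 25.2% lower in sham and 34.3% and 22.6% in BLM. In the test 21.5% of all genes rose and 19.2% fell. Sox18, a transcription factor upstream of Prox1, rose by a log2 fold change of 3.45 (edgeR adjusted p = 2.42e-17), Tspan18, a tetraspanin, by 2.93 (edgeR adjusted p = 1.99e-12) and Stab1, a scavenger receptor, by 2.33 (edgeR adjusted p = 3.14e-09). Thy1, which T cells also carry, fell by 4.35 on the log2 scale (edgeR adjusted p = 6.53e-26). The other 2 that fell, Maf and Stab2, fell by 2.25 (edgeR adjusted p = 4.25e-09) and by 2.58 (edgeR adjusted p = 1.29e-05). Ccl21a, the chemokine of lymphatic vessels, is listed under 2 identifiers, near-identical copies, and both were at 0 in all 6 libraries. In unsorted cells 4 of 17 of these markers were at least 2-fold higher in BLM and 3 lower, beside 13.9% and 16.0% of all genes. Outside the naming rule and chosen after their values were seen, Pdpn, which encodes podoplanin and is also a gene of alveolar type 1 cells and fibroblasts, had a log2 ratio of 3.11 and Nrp2, a co-receptor for Vegfc, one of 2.67. Ackr4, a scavenger of lymphatic chemokines, had one of -2.62.

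Most growth and remodelling genes of lymphatic vessels moved with the pan-endothelial genes in the sort. Of 18 genes, 15 rose and 1 fell in Lamp1-enriched cells in the edgeR test, beside 21.5% and 19.2% of all genes. Calcrl, the adrenomedullin receptor, rose by a log2 fold change of 4.16 (edgeR adjusted p = 5.24e-10), Tek, the angiopoietin receptor, by 3.54 (edgeR adjusted p = 1.03e-13) and Kdr, which encodes VEGFR-2, by 2.79 (edgeR adjusted p = 2.78e-09). Vash1, an angiogenesis inhibitor, rose by 3.28 (edgeR adjusted p = 2.89e-16), and Adamts14, a procollagen protease, fell by 3.49 on the log2 scale (edgeR adjusted p = 5.71e-14). In unsorted cells 9 of the 18 were at least 2-fold lower in BLM and 0 higher, beside 16.0% and 13.9% of all genes. Their median log2 ratio was -1.02. The ligands of Flt4, taken outside the naming rule, had log2 ratios of -0.04 for Vegfc and -1.40 for Vegfd in that comparison.

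Of 11 genes of lymphatic valves, 5 of 10 tested rose and 2 fell in Lamp1-enriched cells in the edgeR test. Of all genes, 21.5% rose and 19.2% fell, so the count that fell was near the share of all genes. Gata2, a transcription factor of valve cells, rose by 3.0 (edgeR adjusted p = 5.17e-14) and Gja4, a gap junction protein, by 3.94 (edgeR adjusted p = 1.70e-21). Celsr1, a planar polarity receptor, fell by 2.72 on the log2 scale (edgeR adjusted p = 1.94e-11) and Nfatc1, a transcription factor, by 1.10 (edgeR adjusted p = 0.00877). Piezo1, a channel opened by stretch, had a log2 fold change of 0.64 (edgeR adjusted p = 0.149). In unsorted cells 1 of 11 was at least 2-fold higher in BLM and 2 were lower, near the shares of 13.9% and 16.0% of all genes. Blood capillary, venous and arterial genes rose in 12 of 12 and alveolar type 1 genes in 6 of 6 in the edgeR test of the sort, and fibroblast genes in 5 of 6. Without the treatment block 10 of 12 blood capillary, venous and arterial genes rose. For fibroblast genes the count was 3 with total counts only, 1 without the treatment block and 0 without the BLM Lamp1-depleted library and the block.

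Prox1 is also active in some cells outside lymphatic vessels, among them heart muscle and neuroendocrine cells. The 8 genes of atrial-like muscle of the pulmonary veins had a summed level of 22.0 CPM in sham unsorted and 9.46 in BLM unsorted cells. Of these 8, 6 were at least 2-fold lower in BLM, beside 16.0% of all genes, while Prox1 was higher. In sham, 6 of these 8 were 2-fold or more higher in unsorted cells than in either fraction, as Prox1 and Reln were, and in BLM 0 of 8 were. The 7 neuroendocrine genes summed to 1.5 to 3.86 CPM in every library, and only 2 to 4 of them had enough reads to be tested in a comparison. The part of heart muscle or neuroendocrine cells in the Prox1 values was not tested.

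The genes whose profile over the 6 libraries lay nearest to each marker were found by the root mean square difference of log2 CPM, each gene centred on its own mean, among genes with at least 100 reads in all. For Prox1 they were Spata18 (0.18), Ccdc170 (0.24) and Gm10797 (0.28). Jag1 (0.06), Morc4 (0.07) and Dpysl3 (0.08) were nearest to Flt4, and Clec14a (0.05), Ces2b (0.20) and Tox3 (0.22) to Lyve1. Mmrn1 had Ctdspl (0.24), Gm2415 (0.29) and Ly6g6c (0.30), and Reln had Il6 (0.43), Mlxipl (0.43) and Lilra5 (0.44). Clec14a, an endothelial surface lectin, had 25907, 4265 and 47695 reads in sham unsorted, depleted and enriched cells and 5869, 409 and 29720 in BLM, nearly the same proportions as Lyve1. Among 19088 ranked genes the markers were seldom near one another. Reln was at rank 1016 for Prox1, with a difference of 0.96, and Lyve1 at rank 18401, with 2.45. Mmrn1 was at rank 957 and Flt4 at rank 1202 for Lyve1, and Prox1 at rank 722 for Reln. For Flt4, Mmrn1 was at rank 2754 and Lyve1 at rank 5291. For Mmrn1, Flt4 was at rank 666 and Lyve1 at rank 2316. The 5 genes thus formed 2 loose groups by profile, as a description over 6 libraries. Flt4, Lyve1 and Mmrn1 were in the first and Prox1 and Reln in the second.

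**Figure D4:**
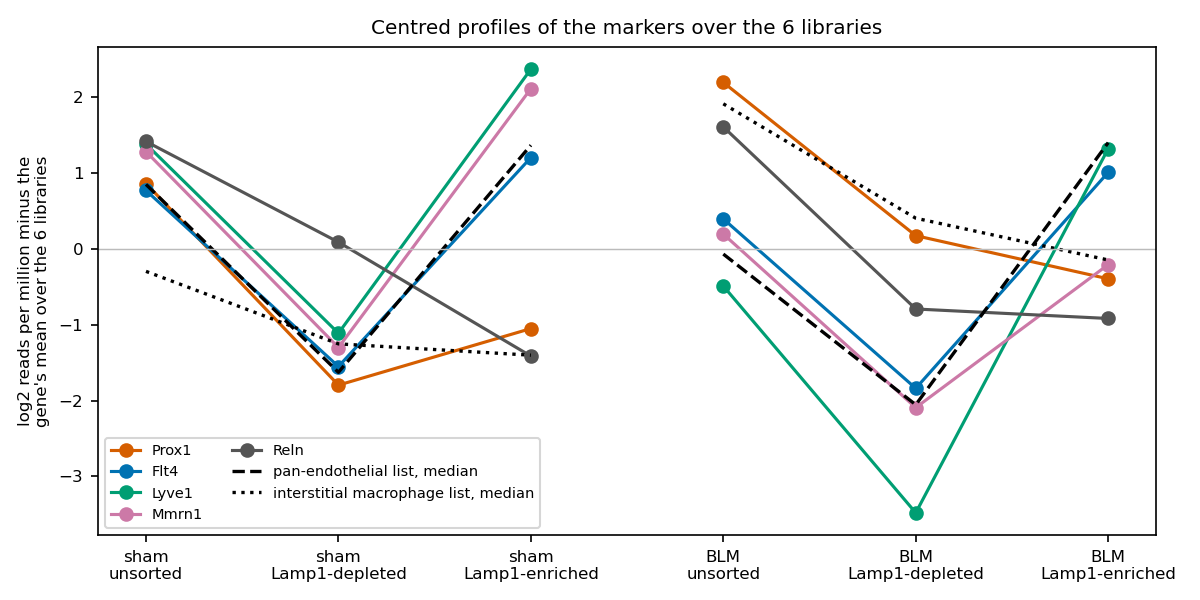
Centred log2 CPM of the 5 markers in the 6 libraries, joined within a treatment, with the median of the pan-endothelial list (dashed) and of the interstitial macrophage list (dotted). Flt4, Lyve1 and Mmrn1 dip in both Lamp1-depleted libraries with the endothelial list, whereas Prox1 and Reln peak in both unsorted libraries.

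Because Ccdc170, among the genes nearest to Prox1, is known from motile cilia, 12 genes of ciliated cells were set beside Prox1. This list was written after these values were seen, through a gene picked for its likeness to Prox1 in these libraries. A likeness of the list to Prox1 in the same libraries was thus partly given by that choice. In unsorted cells 9 of the 12 were at least 2-fold higher in BLM and 1 was lower, where 13.9% and 16.0% of all genes were so. Their median log2 ratio was 2.00, beside 1.33 for Prox1. Foxj1, the transcription factor of motile cilia, went from 98 to 423 reads, a log2 ratio of 2.40, and Dnah5, a dynein chain of the axoneme, from 207 to 959 reads, a log2 ratio of 2.51. Tppp3, which had the most reads of the list, was lower, with a log2 ratio of -1.15. Between sorted fractions, enriched over depleted, 6 of the 7 tested were at least 2-fold higher and 0 lower in sham, while 1 of 8 was higher and 2 were lower in BLM. The shares of all genes were 27.5% higher and 25.2% lower in sham and 34.3% and 22.6% in BLM. In BLM, 10 of the 12 were at least 2-fold lower in Lamp1-enriched than in unsorted cells and 10 were so in Lamp1-depleted cells. In sham, 7 of 11 tested were so in Lamp1-enriched cells and 9 of 11 in Lamp1-depleted cells. The share of all genes was not counted for a single sorted fraction against unsorted cells. The part of ciliated cells in the Prox1 values was not tested.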

How the data were processed

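Bulk RNA-Seq was measured in 6 libraries of mouse lung cells, 1 per condition, so samples were grouped by their labels and no spread between animals was available. The authors deposited raw counts of reads for each gene, not normalized. The submitters' processing notes name Trimmomatic 0.36, STAR 2.5.2b, featureCounts, Subread 1.5.2, DESeq2 and GRCm38; the annotation and the strandedness of counting are not given in the sources used here. No fold change or p-value of the authors was used. Reads that fall on several similar genes may have been dropped or split by the counting.

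TMM factors (0.699 to 1.19) were computed with edgeR 4.0.16 in R 4.3.3, and ratios with Python 3.11.15, numpy 2.4.6, scipy 1.17.1 and pandas 2.3.3. Log2 ratios used a prior count of 0.5 reads and covered genes that reached 10 reads in one of the 2 libraries, with Clopper-Pearson 95% intervals (Poisson for levels, normal on the log scale for ratios of ratios), which cover counting error only. A gene at 3 reads or fewer was held to be at the floor. The sort was tested by edgeR's quasi-likelihood test with filterByExpr and treatment as a block, with Benjamini-Hochberg adjustment over all genes. Of 49315 genes, 49056 were found in GENCODE M21. The programs were tested on simulated data.

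The 5 members and the 11 other lists, written from general knowledge, were chosen with earlier results of these data known. Named by rule were the members, Lamp1, Ptprc and Gm26917, the 3 genes with the most reads in each list with those of highest and lowest sham sort ratio, and the 3 genes nearest each member; the text gives some of them. Alternatives were total counts only, DESeq2 1.42.0 size factors and Wald test, a minimum of 1 or 50 reads, a prior count of 2, log2 thresholds of 2 and 3, thinned counts, Gm26917 left out, all genes with at least 1 read, no treatment block, single endothelial denominators and the longest transcript.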

Additional observations from a re-analysis of the deposited data

Results flagged for a closer look

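Prox1 had opposite directions in the 2 treatments under the same sort contrast: its log2 ratio of Lamp1-enriched over Lamp1-depleted cells was 0.75 for sham and -0.57 for BLM. Behind these values were 63 and 37 reads in sham and 118 and 68 in BLM, and with total counts only the BLM value was -0.01. The difference between treatments was not tested.

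Reln had opposite directions in the fractions under the BLM over sham contrast: its log2 ratio was 0.19 in unsorted, -0.88 in Lamp1-depleted and 0.50 in Lamp1-enriched cells. This difference between fractions was not tested either, and the value in unsorted cells turned to -0.07 with total counts only.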

How the results depend on the processing

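The number of markers at least 2-fold apart stayed within 1.5 times under DESeq2 size factors, a minimum of 1 or 50 reads, a prior count of 2, thinned counts and without Gm26917, in all 5 comparisons. A log2 ratio of at least 2 left 0 in unsorted, 1 in Lamp1-depleted and 1 in Lamp1-enriched cells for BLM over sham, and at least 3 left 0 in each, with 2 for the sort in sham and 1 for that in BLM. Scaling by total counts alone gave 5 for BLM over sham in Lamp1-depleted cells. That scaling moved the median log2 ratio of all genes from -0.01 to -0.19 and from 0.29 to 0.85 for the sort in sham and BLM, and from -0.07 to -0.33 and from -0.20 to -0.92 for BLM over sham in unsorted and depleted cells. In the sort test 8386 genes passed, against 4436 with total counts only, 5077 without the treatment block and 5453 without the BLM Lamp1-depleted library and the block. Flt4 and Lyve1 passed under these alternatives. Mmrn1 did so under all except the last (2.68 against 2.59 on the log2 scale, edgeR adjusted p = 0.132), in which the depleted arm was 1 library. The log2 fold change of Prox1, -0.03, was 0.28 with total counts only, 0.061 over all genes with at least 1 read, 0.022 by DESeq2 and 1.13 without the BLM Lamp1-depleted library and the block (-0.31 without the block alone); no setting made it pass. At 4-fold above both sorted fractions, 0 markers were left in sham and 2 in BLM. No fit with a replicate block was made, since the labels give no replicate numbers. Leaving out a library removes a condition. Depth limits Prox1 most, with 37 reads in its lowest library.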
